A study of Mus musculus with 24 samples.

Results

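Mouse embryonic stem cells (ESCs) lacking functional Tet1 were profiled by RNA-seq before and after 6 days without leukemia inhibitory factor (LIF), and the comparison described here is D6 against D0 within this genotype. Its members were 6 of the 24 libraries of the series: clones 2.1, 2.3 and 2.4 at D0 and clones 2.1, 2.2 and 2.4 at D6. Clones 2.1 and 2.4 were therefore sequenced at both days, while clone 2.3 was sequenced at D0 alone and clone 2.2 at D6 alone. All lines of the series descend from 1 clone of a 129/SVj ESC line that carries eGFP behind the Pou5f1 (Oct4) coding sequence, so the reporter is shared by every group, and Cas9 with guide RNAs was used to make the Tet1-/-, Tet2-/-, DKO (Tet1-/-:Tet2-/-) and TKO lines. Cells grew on gelatin without feeder cells, with LIF at D0 and without it for 6 days at D6. WT (3 clones at each day), Tet2-/- (2 at each day) and DKO (2 at each day) libraries were used to compare their own D6 responses with that of Tet1-/-. With the TKO libraries (2 at each day), they also entered the shared fit that set the scaling, the gene filter and the spread behind every Tet1-/- test. Each clone is an independent line from 1 parent, so the replicate spread below is the spread between clones. The D0 and the D6 counts were deposited as separate tables with no label of sequencing run, so the day and the table cannot be told apart.

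TET proteins oxidise 5-methylcytosine in DNA, the first step of active demethylation, and Tet1 and Tet2 are the members most used in ESCs. LIF binds its receptor with gp130, activates JAK kinases and STAT3, and in this way keeps mouse ESCs in the naive state, in which Zfp42, Klf4, Esrrb and Tfcp2l1 are on. When LIF is removed, ESCs pass through a formative, epiblast-like state marked by Fgf5 and Otx2, and then enter the germ layers, of which mesoderm and endoderm arise through the primitive streak under Nodal, BMP and Wnt signals.

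The Tet1 site given for the guide RNA is shown because it defines the genotype. It lies at chr10:62296283-62296317 on the minus strand (build mm9, NCBIM37), within Tet1 (chr10:62267318-62361866, minus strand), and 32 of its 35 bases fall in a coding exon (chr10:62296286-62296376, counted as exon 4 in a pair of the annotated transcripts) while 3 bases lie beyond the exon end. The PAM is in capitals in the line for the site. The next lines are 6 alleles listed for 3 clones, written as the reference site with the missing bases in capitals.
Tet1 target site: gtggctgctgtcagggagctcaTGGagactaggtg
Listed clone 1, allele 1: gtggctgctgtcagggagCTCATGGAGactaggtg
Listed clone 1, allele 2: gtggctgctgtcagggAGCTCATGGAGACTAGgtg
Listed clone 2, allele 1: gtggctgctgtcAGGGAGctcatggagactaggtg
Listed clone 2, allele 2: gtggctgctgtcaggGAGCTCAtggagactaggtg
Listed clone 3, allele 1: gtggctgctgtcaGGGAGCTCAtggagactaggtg
Listed clone 3, allele 2: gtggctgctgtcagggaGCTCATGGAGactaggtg
The missing stretches were 6 to 16 bases long. In each of the 3 listed clones 1 allele lacked a multiple of 3 bases (6 or 9) and the other did not (7, 10 or 16). The listed clones are not tied by name to clones 2.1 to 2.4 in the sources used here. The paper reported loss of the protein by Western blot, with a representative blot shown.

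Tet1 RNA was still counted in every Tet1-/- library. At D0 it stood at 93.4, 126 and 358 CPM (the gene's count relative to the TMM-adjusted size of its library) in clones 2.1, 2.3 and 2.4, and at D6 at 82.4, 154 and 190 CPM in clones 2.1, 2.2 and 2.4. The libraries of both days overlapped, and the D6-minus-D0 log2 difference was -0.44 with a standard error (SE) of 0.648 (edgeR quasi-likelihood test, Benjamini-Hochberg adjusted p = 0.57). WT libraries held 220 to 431 CPM at D0 and 108 to 125 CPM at D6. A gene count does not read a deletion of a few bases, so these values check neither the genotype nor the protein. Tet2, the other TET gene highly used in ESCs, fell from 83.9, 113 and 90.3 CPM to 12.6, 13.5 and 13.3 CPM (log2 -2.87, SE 0.405, edgeR adjusted p = 7.27e-06), with no overlap of the days. Tet3, which the paper describes as low in ESCs, rose from 6.17 to 6.92 CPM at D0 to 12 to 16.6 CPM at D6 (log2 1.08, SE 0.195, edgeR adjusted p = 1e-04), a change of log2 0.99 without clone 2.2 at D6 and 0.97 with clone as a block.

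The 6 libraries held 24456170 to 31426279 counted fragments, within the 18400463 to 37290208 of all 24 libraries, and 3 counts in 1 library corresponded to 0.0871 to 0.132 CPM. D6 clones differed from each other far more than D0 clones: the coefficient of biological variation was 0.0933 at D0 and 0.244 at D6. ESC markers were abundant at D0, and the markers of feeder fibroblasts were low, summing to 41.02 to 58.8 CPM over the whole list, with Postn and Dcn at 0 in all D0 libraries.

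Of 15639 genes tested, 3109 (19.9%) were higher and 1752 (11.2%) were lower at D6, counting a gene as called when the edgeR quasi-likelihood test gave a Benjamini-Hochberg adjusted p under 0.05 and the change exceeded 2-fold. The counts of list members given later are read beside these shares. Together they made 31.1% of the genes tested, and 63.4% passed the adjusted p alone. The median log2 difference over all genes was 0.003. The 3 D6 libraries lay wholly above the 3 D0 libraries for 2990 of the genes called higher, and wholly below for 1724 of those called lower; over all genes tested 34.0% lay wholly above and 34.3% wholly below. Genes that rose started low, with a median level of 1.16 CPM at D0 and 6.46 CPM at D6, and 1480 of them averaged under 1 CPM at D0. Those that fell went from a median of 9.19 CPM to 2.25 CPM. Changes over 8-fold were seen for 834 higher and 255 lower genes. In these bulk cultures, fewer cells of a type and less RNA per cell cannot be told apart.

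**Figure D1:**
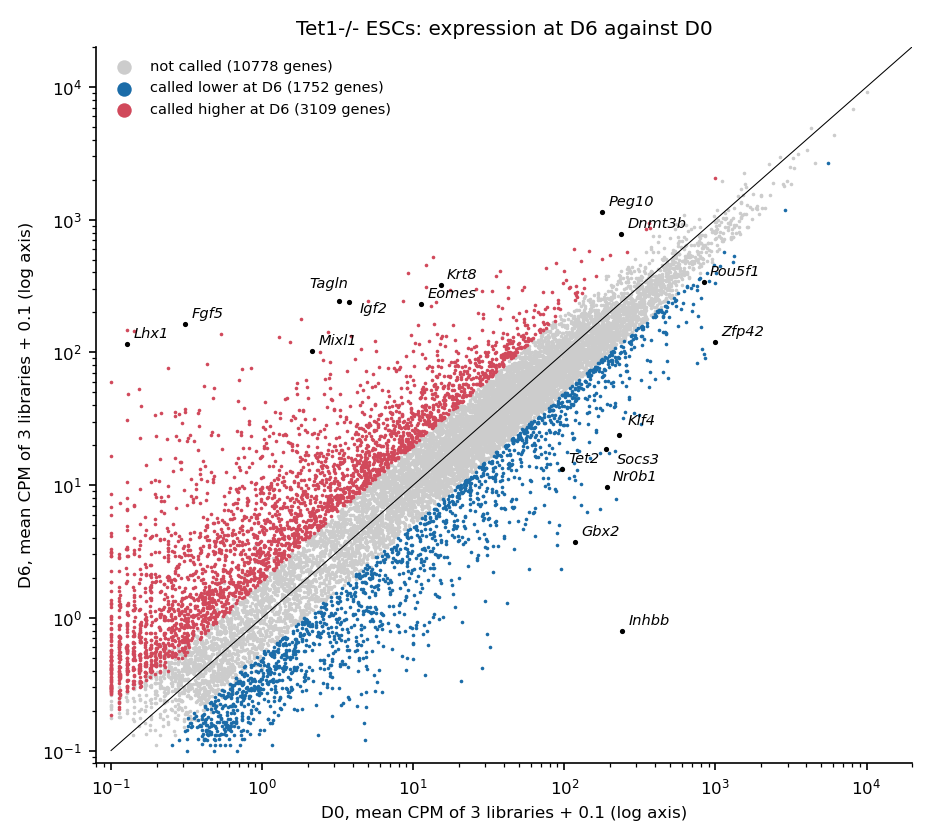
Mean CPM of the 3 Tet1-/- libraries at D6 (vertical) against D0 (horizontal), each plus 0.1, on log axes, with 1 point per gene tested. The 3109 genes called higher are red, the 1752 called lower are blue, the other genes are grey, genes labelled in the plot are black and the line marks equal levels. Among the labelled genes only, Inhbb and Gbx2 lie furthest below the line, and Lhx1 and Fgf5 furthest above.

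The naive pluripotency network fell almost as a block. Of the 23 list members tested, 22 were called lower and 1, Dppa3, was called higher, against 11.2% lower over all genes; the median log2 difference of the list was -2.66. Zfp42 (Rex1), a marker of naive ESCs, went from 1060, 984 and 934 CPM to 132, 49.3 and 179 CPM (log2 -3.04, SE 0.367, edgeR adjusted p = 1.15e-06). Esrrb, an orphan nuclear receptor of the network, went from 855, 852 and 807 CPM to 110, 43 and 139 CPM (log2 -3.10, SE 0.396). Klf4, a direct STAT3 target and reprogramming factor, went from 267, 214 and 210 CPM to 31.3, 15.3 and 24.7 CPM (log2 -3.27, SE 0.333). For all of these the D6 libraries lay far below every D0 library. Nr0b1, which encodes the Oct4 partner Dax1, dropped to 8.01, 3.68 and 16.9 CPM from 183, 201 and 186 CPM (log2 -4.32, SE 0.522). Gbx2, a homeobox gene downstream of STAT3 in ESCs, had the largest fall of the list, from 120, 126 and 108 CPM to 2.7, 3.5 and 4.67 CPM (log2 -5.02, SE 0.298, edgeR adjusted p = 1.92e-10). Tdh, the threonine dehydrogenase on which mouse ESCs depend, and Tfcp2l1 were lower by log2 -3.25 (SE 0.311) and -3.20 (SE 0.338). Dppa3 was low at D0 (0.637, 0.779 and 1.06 CPM) and stood at 5.31, 3.07 and 2.05 CPM at D6 (log2 2.08, SE 0.816, edgeR adjusted p = 0.0327), a call lost when any of 4 libraries was left out: clone 2.1, 2.3 or 2.4 at D0 or clone 2.1 at D6 (edgeR adjusted p = 0.0952, 0.0804, 0.0553 and 0.116). The depth of the fall differed between D6 clones: 20 of the 23 members were lowest in clone 2.2 and 18 were highest in clone 2.4, against 37.2% and 38.9% of all genes. Among all genes called lower the shares were 61.8% and 58.6%.

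The core pluripotency list, shared by naive and primed cells, changed less: 7 of 12 members were called lower, none was called higher, and the median log2 was -1.22. Pou5f1, which encodes Oct4 and drives the eGFP reporter, went from 856, 873 and 778 CPM to 315, 256 and 446 CPM (log2 -1.30, SE 0.203, edgeR adjusted p = 2.09e-05). Sox2, its partner, went from 736, 759 and 643 CPM to 222, 127 and 351 CPM (log2 -1.61, SE 0.337). Nanog stood at 676, 756 and 698 CPM and then at 314, 296 and 354 CPM (log2 -1.14, SE 0.208; -0.94 with scaling by library totals alone). These transcripts were thus still abundant at D6, and none of their D6 values reached a D0 value. Utf1 (log2 -2.03, SE 0.454) and Dppa2 (log2 -1.79, SE 0.410) also fell. Lin28a, an RNA-binding protein that blocks let-7 maturation, was above its D0 level in every D6 library (353 to 403 CPM, then 524 to 635 CPM) without reaching 2-fold (log2 0.67, SE 0.135), and Sall4 overlapped between days (338 to 379 CPM and 309 to 358 CPM).

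**Figure D2:**
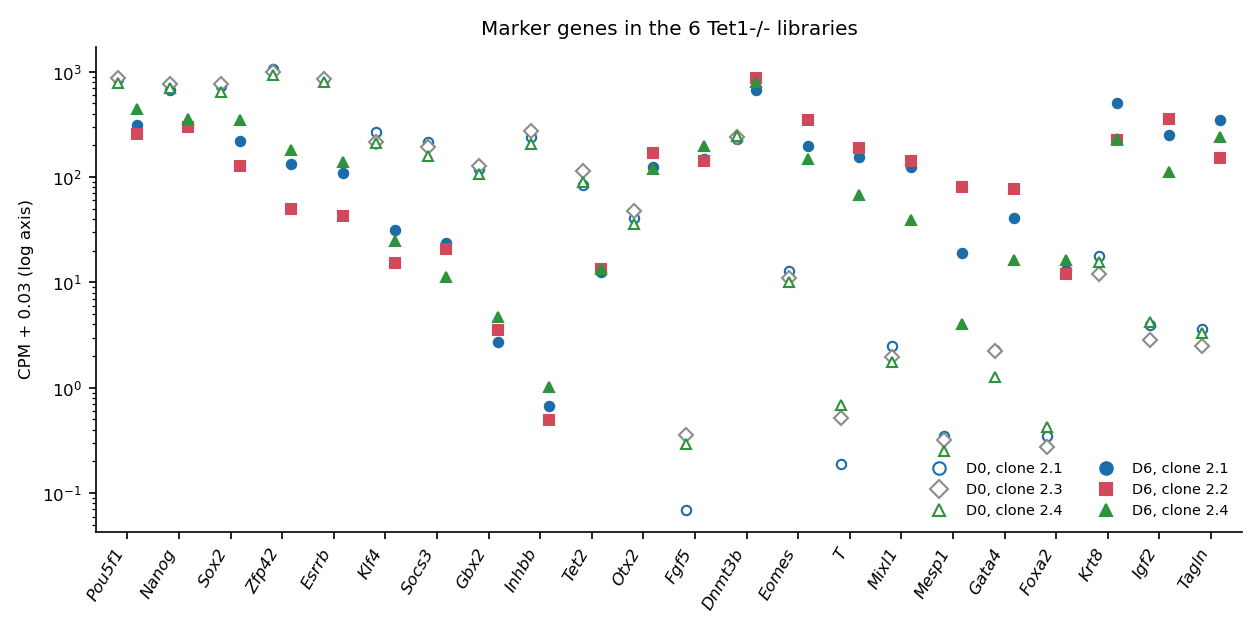
CPM plus 0.03 on a log axis for marker genes (horizontal) in each of the 6 Tet1-/- libraries, with D0 as open and D6 as filled symbols, 1 symbol shape and colour per clone. Naive markers such as Zfp42, Klf4 and Gbx2 lie lower at D6 in all clones, Pou5f1, Nanog and Sox2 less so, and the 3 D6 clones spread most for Mesp1 (4.01 to 81 CPM).

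Of 20 tested members of the LIF and STAT3 pathway, 5 (25%) were called lower and 2 (10%) higher, beside 11.2% and 19.9% of all genes, and the median log2 was -0.11, although it became 0.09 when libraries were scaled by their totals alone, 0.04 without clone 2.2 at D6 and -0.19 without clone 2.1 at D6. Direct outputs of the pathway were among those that fell. Socs3, its feedback inhibitor, went from 216, 194 and 158 CPM to 23.4, 20.8 and 11.2 CPM (log2 -3.36, SE 0.262, edgeR adjusted p = 6.3e-09). Stat3 itself went from 114, 118 and 126 CPM to 55.1, 56.7 and 30.6 CPM (log2 -1.33, SE 0.180), and the kinase gene Pim3 fell by 1.93 on the log2 scale (SE 0.198). Among receptor genes, Lifr lay below its D0 values in every library (19.9 to 23.6 CPM, then 10.3 to 13.4 CPM; log2 -0.93, SE 0.173) without reaching 2-fold, though it was called, at just over 2-fold, without clone 2.2 at D6 (edgeR adjusted p = 0.000233), and Il6st, which encodes gp130, overlapped between days (85.1 to 92.8 CPM and 82.5 to 114 CPM). Jak2 rose from 7.04 to 7.54 CPM to 21.1 to 31.9 CPM (log2 1.96, SE 0.301). The ligand gene Lif also rose, from 3.57 to 4.14 CPM to 7.07 to 10.2 CPM (log2 1.22, SE 0.211). Myc stayed at 58.5 to 64.8 CPM against 76.6 to 81.6 CPM at D0, a difference that was not past the threshold (log2 -0.36, SE 0.286, edgeR adjusted p = 0.284). The STAT motif TTCCNGGAA was read on both strands of the 250 bases before the start site in RefSeq (GRCm38.p6). It was found for 0 of the 17 list genes with a promoter entry and in 0.913% of all 32851 promoters of that length. The former counts genes and the latter single promoter entries, and the 0 says only that these letters are not in this window.

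Formative and primed epiblast genes mostly rose: 15 of 24 were called higher and 3 lower, with a median log2 of 1.38. Fgf5, the classical marker of primitive ectoderm, went from 0.0398, 0.328 and 0.264 CPM to 148, 143 and 196 CPM (log2 9.58, SE 0.595, edgeR adjusted p = 3.38e-10). The 3 clones were close to each other at D6. Otx2, a homeobox factor that redirects Oct4 to new enhancers, went from 40.4, 47.7 and 36.2 CPM to 124, 171 and 120 CPM (log2 1.74, SE 0.337). Pou3f1 (Oct6) reached 64.2, 46.9 and 122 CPM from 8.16, 8.85 and 7.14 CPM (log2 3.27, SE 0.319), and it was highest in clone 2.4. Zic2 (log2 3.90, SE 0.257) and Lef1 (log2 4.31, SE 0.404) rose as well. The fallers were Etv4, an effector of FGF signalling (log2 -2.23, SE 0.223), Foxd3 (log2 -2.47, SE 0.522) and Tcf15 (log2 -2.84, SE 0.368), which stood at 78.6 to 114 CPM at D0 and 8.71 to 20.8 CPM at D6.

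Primitive streak and early mesoderm genes gave the largest median rise of any list, at log2 4.36. Of 27 tested, 20 were called higher and 3 lower, beside 19.9% higher over all genes. T (Brachyury), the T-box factor of the streak, was at 0.159, 0.492 and 0.661 CPM at D0 and at 155, 187 and 67.4 CPM at D6 (log2 8.29, SE 0.622, edgeR adjusted p = 3.68e-09). Eomes, a T-box factor of mesendoderm, went from 12.7, 10.9 and 10.1 CPM to 196, 350 and 148 CPM (log2 4.36, SE 0.394). Mixl1, a homeobox gene of the streak, went from 2.47, 1.93 and 1.72 CPM to 125, 141 and 38.8 CPM (log2 5.64, SE 0.651). The rise was present in all 3 D6 clones, but its size was not equal among them. Mesp1, which marks the first cardiac and cranial mesoderm, was at 0.22 to 0.318 CPM at D0 and at 19.1, 81 and 4.01 CPM in clones 2.1, 2.2 and 2.4 (log2 6.95, SE 1). Hand1 of lateral and extraembryonic mesoderm stood at 44.9, 73.8 and 8.43 CPM after 0.779 to 1.15 CPM (log2 5.49, SE 0.844). Pdgfra, a receptor of paraxial mesoderm, stood at 42.9, 123 and 8.96 CPM after 1.54 to 1.68 CPM (log2 5.18, SE 0.717). Clone 2.2 was the highest D6 library for 25 of the 27 genes and clone 2.4 the lowest for 24. The shares were 38.0% and 37.8% over all genes tested, and 52.4% and 56.6% over all genes called higher. Lhx1, a LIM homeobox gene of the anterior streak, had 2 counts in all D0 libraries together and 107, 209 and 30.5 CPM at D6, a ratio of 4020 (95% Poisson interval of the D0 count, 1110 to 33200, covering counting error only). Bmp4 and Cdx1 went the other way, from 91.3 to 93.5 CPM to 11.5 to 30.1 CPM (log2 -2.17, SE 0.444) and from 4.18 to 4.54 CPM to 0.5 to 0.9 CPM (log2 -2.58, SE 0.318). Wnt3a and Cdx4, markers of the posterior streak, stayed under 1 CPM at both days.

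Cardiac and smooth muscle genes were called higher in 16 of 25 cases and lower in 2, with a median log2 of 2.89. Tagln, an actin-binding protein of smooth muscle, went from 3.62, 2.46 and 3.3 CPM to 347, 150 and 240 CPM (log2 6.29, SE 0.334, edgeR adjusted p = 5.14e-11). Acta2 (smooth muscle actin) went from 0 to 0.132 CPM to 60.1, 17.9 and 40 CPM (log2 9.36, SE 0.844). Unlike the streak genes, Tagln and Acta2 were lowest in clone 2.2. Gata4 and Hand2, transcription factors of the heart field, were highest in clone 2.2, at 77.4 and 8.18 CPM against 16.3 and 0.821 CPM in clone 2.4. Actc1 (cardiac actin) had no count at D0 and 5.63, 12.5 and 2.27 CPM at D6, at least 157-fold higher with 3 counts over the group as the floor. Myh6 and Myl7, genes of cardiac myosin chains, were not called. Myh6 reached at most 6.83 CPM at D0 and 5.97 CPM at D6 (edgeR adjusted p = 0.606), Myl7 stood at 4.49 to 6.25 CPM and then at 2.49 to 4.57 CPM (edgeR adjusted p = 0.0539), while Ttn fell by 2.80 on the log2 scale (SE 0.393).

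Of 18 endothelium and blood genes tested, 5 were called higher and 5 lower, beside 19.9% and 11.2% of all genes, with a median log2 of 0.01 that ran from -0.11 to 0.31 when single libraries were left out. Flt1, a VEGF receptor, rose from 0.485 to 0.955 CPM to 48, 38.1 and 27.9 CPM (log2 5.83, SE 0.448, edgeR adjusted p = 5.13e-09). Kdr, the VEGF receptor that marks early mesoderm before endothelium, rose from 4.85, 7.09 and 8.28 CPM to 47.6, 167 and 12.3 CPM (log2 3.49, SE 0.747), a 3.65 log2 range among D6 clones, and with clone as a block it was no longer called (log2 1.93, edgeR adjusted p = 0.0614). Among markers of definitive endothelium, Cdh5 (VE-cadherin) stayed under 1 CPM in all 6 libraries, and Pecam1, which naive ESCs also express, fell from 65 to 77.5 CPM to 14.8 to 31.6 CPM (log2 -1.58, SE 0.366). Etv2 and Tal1, which specify blood and endothelium, overlapped between days, at 1.54 to 1.84 CPM and 1 to 1.83 CPM for the former.

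Among endoderm genes 15 of 28 were called higher and 5 lower, with a median log2 of 1.38. Foxa2, a forkhead factor of definitive endoderm and node, went from 0.318, 0.246 and 0.397 CPM to 13.1, 12.1 and 16.2 CPM (log2 5.42, SE 0.674, edgeR adjusted p = 1.67e-06). Those 3 D6 values lay closer together than the values of the mesoderm genes. Sox17 of definitive and visceral endoderm went from 1.07, 0.697 and 0.22 CPM to 21.2, 22.2 and 5.24 CPM (log2 4.58, SE 0.779). Gata6 stood at 28.4, 40 and 6.16 CPM after 0.485 to 0.697 CPM (log2 5.31, SE 0.791). Cer1, a secreted Nodal and Wnt antagonist of anterior endoderm, had 2 counts at D0 in all and 34.2, 44.7 and 12.9 CPM at D6, a ratio of 1090 (95% Poisson interval 301 to 8990). Cxcr4, the chemokine receptor of definitive endoderm, rose from 2.13 to 2.9 CPM to 42.3, 89 and 13.1 CPM (log2 4.29, SE 0.615). Hnf4a and Sox7, factors of visceral and primitive endoderm, were lower, with log2 -1.69 (SE 0.694) and -3.42 (SE 0.375), the first not past the threshold without clone 2.1 or 2.3 at D0 or clone 2.2 or 2.4 at D6 (edgeR adjusted p = 0.133, 0.0645, 0.146 and 0.137) or with clone as a block (0.0958). A further 4 genes of mature visceral endoderm or liver (Afp, Ttr, Apoa1, Apoa2) had too few counts to be tested.

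Of 19 trophectoderm genes tested, 13 were called higher and none lower (median log2 2.29), although the list shares Eomes, Hand1, Krt8, Krt18 and Gata2 with others and Gata2 was not called without clone 2.4 at D0 (edgeR adjusted p = 0.0696). Krt8 and Krt18, keratins of simple epithelia, went from 17.9, 12 and 15.5 CPM to 507, 225 and 232 CPM (log2 4.41, SE 0.355) and from 15.7, 10.7 and 9.43 CPM to 474, 230 and 225 CPM (log2 4.69, SE 0.337). Cdx2, which specifies trophectoderm and also marks posterior mesoderm, went from 0.22 to 0.358 CPM to 6.62, 9.78 and 5.24 CPM (log2 4.61, SE 0.854). Tead4, a regulator of early trophectoderm, was below its D0 values (16.8 to 21.6 CPM, then 10.3 to 13.2 CPM; log2 -0.72, SE 0.247) without reaching 2-fold, and Elf5, a trophoblast stem cell factor, stayed at or below 0.377 CPM in all libraries (edgeR adjusted p = 0.0531; 0.0304 without clone 2.1 at D0 and 0.0196 without clone 2.2 at D6).

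Neuroectoderm genes were called higher in 10 of 23 cases (43.5%) and lower in 6 (26.1%), beside 19.9% and 11.2% of all genes, with a median log2 of 0.76. This median depended on single libraries, at 0.05 without clone 2.4 at D6, 0.36 without clone 2.4 at D0 and 1.53 without clone 2.1 at D0. Sox11 went from 10.2, 8.52 and 9.96 CPM to 111, 173 and 119 CPM (log2 3.81, SE 0.219, edgeR adjusted p = 1.31e-10). Nes (nestin), an intermediate filament of progenitors, went from 11.1, 7.46 and 13.8 CPM to 122, 114 and 113 CPM (log2 3.43, SE 0.255). Msx1, a homeobox target of BMP, went from 0.132 to 0.477 CPM to 52.7, 95.5 and 18.5 CPM (log2 7.43, SE 0.785). Fabp7, a fatty acid-binding protein of radial glia, had no count at D0 and 0.871, 1.86 and 0.821 CPM at D6, at least 27.6-fold higher. Sox1, the first neural plate marker, went from 4.66, 4.22 and 4.8 CPM to 0.696, 0.892 and 2.81 CPM (log2 -1.63, SE 0.485), and Pax6 reached at most 2.08 CPM (edgeR adjusted p = 0.0926; 0.0383 without clone 2.2 and 0.0442 without clone 2.1 at D6). Tubb3, a neuronal tubulin, fell from 118 to 168 CPM to 7.93 to 26.6 CPM (log2 -3.22, SE 0.442). A further 8 members had too few counts to be tested.

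**Figure D3:**
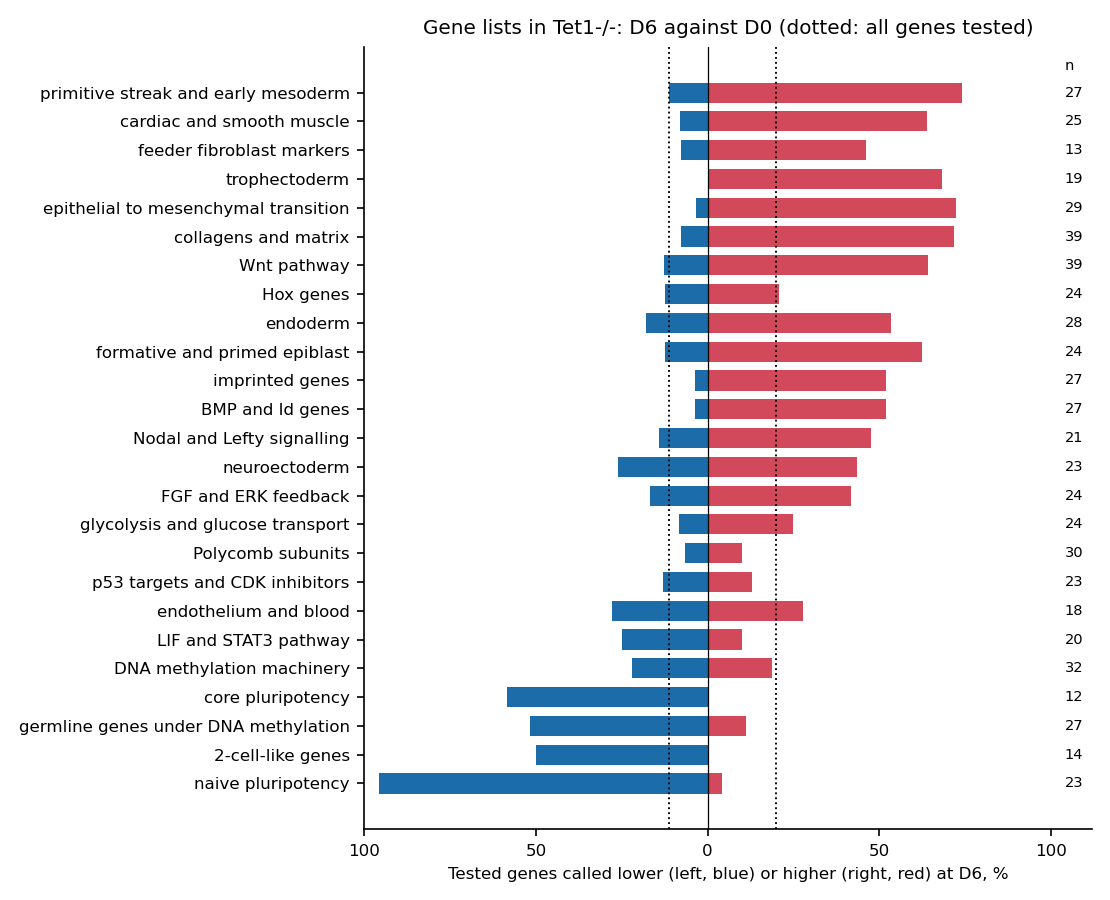
Share of the tested members of each gene list called lower (blue, left) or higher (red, right) at D6 in Tet1-/- ESCs, in percent, ordered by the median log2 difference, with the number tested (n) at the right and dotted lines at the shares of all genes (11.2% lower, 19.9% higher). Naive pluripotency stands out on the left with 22 of 23 members. On the right, streak and early mesoderm (74.1%) lies close to epithelial to mesenchymal transition (72.4%) and collagens and matrix (71.8%). Lists share some genes.

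Among genes of DNA methylation and its removal, 6 of 32 were called higher and 7 lower, beside 19.9% and 11.2% of all genes, and the median log2 was -0.34 (-0.19 without clone 2.1 at D6 and -0.13 with scaling by library totals). Dnmt3b, a de novo methyltransferase, went from 229, 241 and 243 CPM to 672, 869 and 792 CPM (log2 1.71, SE 0.266, edgeR adjusted p = 2.14e-05), whereas its cofactor gene Dnmt3l went from 293, 332 and 355 CPM to 111, 43.3 and 190 CPM (log2 -1.51, SE 0.306). Dnmt3a stood at 201 to 242 CPM and then at 173 to 197 CPM, and maintenance methyltransferase Dnmt1 at 331 to 345 CPM and then at 243 to 291 CPM (log2 -0.35, SE 0.113). Zfp57 and Trim28, which keep methylation at imprinted regions, fell by 2.93 (SE 0.143) and 1.31 (SE 0.117) on the log2 scale. Cxxc4, whose CXXC domain was split from an ancestral TET gene, rose from 0.159 to 0.308 CPM to 1.74 to 3.61 CPM (log2 3.57, SE 0.357).

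Germline genes silenced by promoter methylation in somatic cells were called lower in 14 of 27 cases and higher in 3, with a median log2 of -1.23. Dazl, an RNA-binding protein of germ cells, went from 15.2, 21.1 and 19.6 CPM to 4.96, 3.86 and 5.81 CPM (log2 -1.93, SE 0.446, edgeR adjusted p = 0.000991). Mov10l1 and Piwil2 of the piRNA pathway fell by 2.01 (SE 0.321) and 2.27 (SE 0.286). The exceptions were Cpeb1 (log2 1.81, SE 0.293), Tdrd1 (log2 1.62, SE 0.238) and the synaptonemal complex gene Sycp3, which rose from 4.14 to 4.36 CPM to 8.68 to 9.97 CPM (log2 1.13, SE 0.331). Clone 2.2 was the lowest D6 library for 24 of the 27, beside 37.2% of all genes and 61.8% of all genes called lower. Of 14 tested genes of the 2-cell-like state, 7 were called lower and none higher. Their median log2 was -1.85, at -2.81 from the 6 libraries alone, -2.60 without clone 2.1 at D6, -1.41 without clone 2.2 at D6 and -1.47 without clone 2.4 at D0. The Zscan4 copies among them share near-identical sequence, so their individual counts are uncertain, and Zscan4d, for example, stood at 1.63 to 1.93 CPM at D0 and 0.0357 to 0.347 CPM at D6.

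Imprinted genes were called higher in 14 of 27 cases and lower in 1 (Xist, log2 -1.33, and -0.91 with clone as a block), with a median log2 of 1.23. Igf2, a paternally expressed growth factor, went from 3.94, 2.83 and 4.19 CPM to 252, 352 and 111 CPM (log2 6.03, SE 0.537, edgeR adjusted p = 3.16e-08), and H19, maternally expressed from the same locus, went from 2.63, 3.73 and 2.03 CPM to 25.1, 15.3 and 9.06 CPM (log2 2.56, SE 0.432). Both members of this reciprocally imprinted pair thus rose. Peg3 went from 9.83, 11.7 and 14.4 CPM to 514, 630 and 217 CPM (log2 5.24, SE 0.438). Peg10, a retrotransposon-derived placental gene, had the second largest gain in CPM of any called gene, from 150, 169 and 214 CPM to 1350, 1010 and 1090 CPM (log2 2.69, SE 0.309). Cdkn1c, which encodes the CDK inhibitor p57, and the noncoding RNA Meg3 rose by 2.09 (SE 0.309) and 2.24 (SE 0.202). Snrpn and Kcnq1ot1 overlapped between days. Allelic expression was not measured, since the counts do not separate alleles.

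Nodal signalling genes were called higher in 10 of 21 cases (47.6%) and lower in 3 (14.3%, near the 11.2% of all genes), with a median log2 of 0.79. Nodal itself stood at 81.6, 78.6 and 72.9 CPM and then at 105, 104 and 109 CPM, above D0 in all libraries but not past the threshold (log2 0.45, SE 0.234, edgeR adjusted p = 0.0995). Other members moved further. Fst, which encodes the activin inhibitor follistatin, went from 3.26, 4.26 and 3.88 CPM to 110, 211 and 76.1 CPM (edgeR adjusted p = 1.26e-09). Inhbb, the activin B subunit, showed the largest fall among all genes that met the naming rule, from 240, 276 and 206 CPM to 0.638, 0.464 and 0.979 CPM (log2 -8.42, SE 0.301, edgeR adjusted p = 4.48e-13). The inhibitory Smad7 also fell (log2 -1.48, SE 0.168), and the co-receptor gene Tdgf1 stood at 703 to 842 CPM and then at 426 to 528 CPM (log2 -0.68, SE 0.142).

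BMP pathway genes were called higher in 14 of 27 cases and lower in 1 (Bmp4), with a median log2 of 1.19. Bmp2 went from 0.477, 0.533 and 0.22 CPM at D0 to 22.3 and 44.3 CPM in clones 2.1 and 2.2 at D6 and to a lower level in clone 2.4 (log2 5.83, SE 0.959), opposite to Bmp4. Bmp5 had no count at D0 and 6.53, 18 and 0.915 CPM at D6, at least 194-fold higher. Msx2, a target, went from 1.15 to 1.35 CPM to 31.9, 53.9 and 10.5 CPM (log2 4.71, SE 0.631). Among the Id genes, direct BMP targets that block bHLH factors, Id2 rose from 3.69 to 4.89 CPM to 23.8 to 61.6 CPM (log2 3.23, SE 0.372). Id1 stood at 41 to 54.2 CPM and then at 55.5 to 83.9 CPM (log2 0.65, SE 0.280, edgeR adjusted p = 0.0507), which did not pass.

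Wnt pathway genes were called higher in 25 of 39 cases and lower in 5, with a median log2 of 1.67. Wnt3, the ligand needed to form the streak, went from 0.279, 0.41 and 0.308 CPM to 76.2, 130 and 36.6 CPM (log2 7.91, SE 0.550, edgeR adjusted p = 1.4e-09), and Wnt8a, another ligand, reached 8.05 to 17.5 CPM (log2 5.34, SE 0.514). Axin2, a feedback inhibitor and target of beta-catenin, went from 9.83, 9.96 and 8.5 CPM to 62, 94 and 43.7 CPM (log2 2.82, SE 0.292). Sp5, a transcription factor target, went from 0.756, 0.615 and 0.529 CPM to 78.9, 112 and 33.6 CPM (log2 6.87, SE 0.552). Dkk1, a secreted antagonist, stood at 16.8, 25.5 and 4.67 CPM after 0.0398 to 0.164 CPM (log2 7.08, SE 0.909). The order of the clones, 2.2 over 2.1 over 2.4, was the same for these. The genes that fell were Ccnd1, Sfrp1, Fzd5, Sfrp5 and Notum, the last an enzyme that removes the lipid of Wnt ligands (38.6 to 41.5 CPM, then 3.07 to 4.7 CPM; log2 -3.36, SE 0.355), while Ctnnb1, which encodes beta-catenin, stood at 1420 to 1520 CPM and then at 1080 to 1150 CPM (log2 -0.38, SE 0.083).

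The TCF/LEF motif CTTTGAT, searched on both strands of the 250 bases upstream of the start site (RefSeq, GRCm38.p6), was present in 3 of the 26 Wnt pathway genes with a promoter entry (11.5%) and in 1053 of 32851 promoters of that length (3.21%). A list gene counted if any of its promoter entries matched, whereas the other share counts each entry, so these percentages are in unlike units. The promoters of the 3 Wnt pathway genes are shown because all 3 genes rose at D6. The motif is in capitals, on the strand of transcription, and begins at -104 in Sp5 (chr2:70474673-70474922, plus strand), at -51 in Wnt11 (chr7:98834862-98835111, plus strand, where it reads ATCAAAG) and at -71 in Wnt5b (chr6:119449387-119449636, minus strand). A match is a run of letters and not a measured site.
Sp5: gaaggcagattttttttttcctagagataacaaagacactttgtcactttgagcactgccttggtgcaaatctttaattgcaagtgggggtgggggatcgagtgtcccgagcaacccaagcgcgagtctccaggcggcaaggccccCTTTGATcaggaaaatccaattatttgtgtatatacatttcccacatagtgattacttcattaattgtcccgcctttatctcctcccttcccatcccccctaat
Wnt11: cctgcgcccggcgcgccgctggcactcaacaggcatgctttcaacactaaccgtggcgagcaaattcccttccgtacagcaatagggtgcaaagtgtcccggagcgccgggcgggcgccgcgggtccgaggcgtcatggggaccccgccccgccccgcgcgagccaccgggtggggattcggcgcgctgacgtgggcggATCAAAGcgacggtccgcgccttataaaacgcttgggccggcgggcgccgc
Wnt5b: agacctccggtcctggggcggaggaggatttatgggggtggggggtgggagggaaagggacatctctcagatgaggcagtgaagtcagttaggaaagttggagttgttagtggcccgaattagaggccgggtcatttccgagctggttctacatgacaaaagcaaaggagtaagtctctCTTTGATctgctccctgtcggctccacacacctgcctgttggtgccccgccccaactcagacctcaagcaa
Wnt11, a noncanonical ligand, went from 2.39, 2.05 and 1.89 CPM to 6.59, 6.43 and 5.27 CPM (log2 1.53, SE 0.319). Wnt5b, another ligand, went from 2.15, 2.62 and 1.89 CPM to 12.1, 15.2 and 11.6 CPM (log2 2.54, SE 0.5). Neither overlapped between days, and Axin2 and Wnt3, which rose too, hold no such match in the window.

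FGF and ERK feedback genes were called higher in 10 of 24 cases (41.7%) and lower in 4 (16.7%), beside 19.9% and 11.2% of all genes, with a median log2 of 0.75. Fgf4, the ESC ligand, went from 214, 231 and 209 CPM to 38.3, 23 and 55.7 CPM (log2 -2.48, SE 0.457), while Fgf8, the streak ligand, went from 0.199, 0.082 and 0.132 CPM to 77.4, 99.3 and 53.6 CPM (log2 9.07, SE 0.436, edgeR adjusted p = 1.48e-11). Spry4, a feedback inhibitor, fell from 324 to 388 CPM to 26.8 to 93.6 CPM (log2 -2.72, SE 0.341), and Dusp4, an ERK phosphatase gene, rose from 17.3 to 22.1 CPM to 55.5 to 105 CPM (log2 2.19, SE 0.293). Egr1, an immediate target of ERK, stood at 29.7 to 31.2 CPM and then at 38 to 45.8 CPM, which was not past the threshold (edgeR adjusted p = 0.114).

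Hox genes remained low. Of 24 tested, 5 (20.8%) were called higher and 3 (12.5%) lower, near the 19.9% and 11.2% of all genes, and the whole list summed to 8.81 to 9.708 CPM at D0 and to 8.967, 24.24 and 11.55 CPM in clones 2.1, 2.2 and 2.4 at D6. Hoxb1, the first Hox gene of the posterior streak, had 1 count at D0 in all and 0.958, 6.64 and 0.663 CPM at D6, a ratio of 184 (95% Poisson interval 33 to 7270). Hoxb9, Hoxc13 and Hoxd13 were lower, at 1.72 to 2.03 CPM and then 0.5 to 1.17 CPM for Hoxb9 (log2 -1.12, SE 0.388), but Hoxb9 and Hoxd13 were not called without clone 2.2 at D6 (edgeR adjusted p = 0.1 and 0.147), nor Hoxd13 without clone 2.1 at either day or 2.4 at D0 (edgeR adjusted p = 0.0681, 0.136 and 0.0603). With clone as a block Hoxb9 was at log2 -0.93 and Hoxd13 at an edgeR adjusted p of 0.0502. A further 15 Hox genes had too few counts to be tested.

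Genes of epithelial to mesenchymal transition were called higher in 21 of 29 cases and lower in 1, and the rises covered both cell states. On the mesenchymal side, Cdh2 (N-cadherin) went from 5.05, 5.33 and 6.35 CPM to 90.1, 176 and 41.4 CPM (log2 4.2, SE 0.618), and the repressor Snai1 from 6.49, 5.98 and 4.8 CPM to 23, 61.3 and 9.82 CPM (log2 2.44, SE 0.510). On the epithelial side, Epcam went from 88.1 to 93.5 CPM to 211 to 271 CPM (log2 1.39, SE 0.143), Cldn6 from 15.7, 12 and 11.3 CPM to 249, 174 and 251 CPM (log2 4.11, SE 0.232), and Cdh1 (E-cadherin) from 324 to 445 CPM to 529 to 931 CPM, just under 2-fold (log2 0.96, SE 0.163; called at 1.04 with clone as a block, 1.07 without clone 2.1 at D0 and 1.20 without clone 2.2 at D6). Clone 2.2 had the highest D6 level of Cdh2 and Snai1 and the lowest of Cdh1, Epcam and Cldn6. Zeb1 was the 1 member called lower (log2 -1.67, SE 0.389), and Vim, a mesenchymal filament, was not called, at 456 to 487 CPM and then 165 to 345 CPM (edgeR adjusted p = 0.0928).

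Collagen and matrix genes were called higher in 28 of 39 cases and lower in 3, with a median log2 of 1.99. Col1a1 went from 1.95, 1.43 and 0.969 CPM to 40.1, 35.3 and 17.7 CPM (log2 4.41, SE 0.559), and Thbs1 (thrombospondin) from 1.31, 1.68 and 2.12 CPM to 295, 76.9 and 163 CPM (log2 6.72, SE 0.442, edgeR adjusted p = 7.18e-10). Ctgf and Cyr61, matrix proteins induced by YAP, rose by 2.89 (SE 0.228) and 3.08 (SE 0.299). Basement membrane genes split, with Lama1 and Nid1 lower (log2 -2.56, SE 0.298, and -2.60, SE 0.205) and Lamb1 and Lama5 higher (log2 1.5, SE 0.162, and 1.17, SE 0.137). Fibronectin (Fn1) had the largest gain in CPM of any called gene, yet its days overlapped: 965, 1030 and 988 CPM at D0 and 1820, 3460 and 869 CPM at D6, clone 2.4 lying below every D0 library. Its call was lost without clone 2.2 at D6 (log2 0.49, edgeR adjusted p = 0.231), without clone 2.1 or 2.4 at D0 (edgeR adjusted p = 0.0574 and 0.0542) and with clone as a block (log2 0.36, edgeR adjusted p = 0.449). Of the feeder fibroblast markers, 6 of 13 tested were called higher and 1, Thy1, lower, and their summed level ran from 41.02 to 58.8 CPM at D0 and from 41.26 to 92.28 CPM at D6. Postn and Dcn, at 0 at D0, reached at most 0.929 and 0.406 CPM. The part of such cells in the matrix and mesenchymal genes was not tested.

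Of 24 glycolysis genes, 6 were called higher and 2 lower, near the 19.9% and 11.2% of all genes, with a median log2 of 0.19. Slc16a3, a lactate exporter, went from 60.4, 46.4 and 19.2 CPM to 292, 414 and 231 CPM (log2 2.89, SE 0.405), and Tpi1 from 411, 381 and 249 CPM to 732, 863 and 949 CPM (log2 1.29, SE 0.263), while Hk1 and Pfkp fell by 1.26 (SE 0.262) and 1.63 (SE 0.285). Among p53 targets and cell cycle regulators 3 of 23 were called higher and 3 lower (13% each). Those higher were the CDK inhibitors Cdkn1b, Cdkn1c and, barely over 2-fold, Cdkn1a (log2 1.01, and 0.90 with clone as a block; 0.94 to 1.00 without clone 2.3 or 2.4 at D0 or clone 2.1 or 2.2 at D6), and those lower were the G1 cyclins Ccnd3, Ccne1 and Ccnd1 (log2 -1.10, -0.99 without clone 2.1 at D6 and -0.90 with scaling by library totals). Ccnd3 went from 495, 463 and 455 CPM to 131, 107 and 109 CPM (log2 -2.03, SE 0.108, edgeR adjusted p = 5.52e-11), and Cdkn1b from 18.2 to 20.6 CPM to 38.8 to 49.9 CPM (log2 1.22, SE 0.249). Of 30 Polycomb subunits, 3 were called higher and 2 lower, below both shares of all genes. Eed, a core subunit of PRC2, was one of these, going from 428, 477 and 497 CPM to 136, 114 and 161 CPM (log2 -1.77, SE 0.115). Its partners Ezh2 (192 to 235 CPM, then 158 to 213 CPM) and Suz12 (329 to 393 CPM, then 359 to 443 CPM) overlapped between days.

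Beyond the lists, genes were named by the size of their change. Aplnr, the apelin receptor of mesoderm, was among the largest rises, with no count at D0 and 33.5, 142 and 5.15 CPM at D6, at least 1350-fold higher. Cyp26a1, which degrades retinoic acid, went from 0.119, 0.041 and 0 CPM to 57.1, 84.4 and 18.1 CPM (log2 9.79, SE 1.01, edgeR adjusted p = 1.84e-07). Pcdh7, a protocadherin, had 2 counts at D0 and 44.3, 84.6 and 17.1 CPM at D6 (ratio 1700, 95% Poisson interval 471 to 14100). In all of these clone 2.2 was highest and clone 2.4 lowest. Gbp2 and Gbp2b, interferon-inducible GTPases, reached 218, 143 and 79.3 CPM and 217, 150 and 70.2 CPM from at most 0.0441 CPM, but their sequences are nearly identical and the split of reads between them is uncertain. Klhl6 had no count at D0 and was at least 383-fold higher. Amer3 stood at 14, 52.1 and 2.02 CPM after at most 0.119 CPM (log2 8.56, SE 1.28).

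After Inhbb, the largest falls among genes that met the naming rule were Hal (histidine ammonia-lyase), from 24.1, 30.4 and 31 CPM to 0.232, 0.25 and 0.473 CPM (log2 -6.46, SE 0.572), and Myo1f, an unconventional myosin, from 18.5, 23.2 and 20.2 CPM to 0.0871, 0.107 and 0.505 CPM (log2 -6.44, SE 0.401, edgeR adjusted p = 3.38e-10). Ak7 (log2 -5.99, SE 0.342), Accsl (log2 -5.51, SE 0.555), Halr1, Sept1 (log2 -5.40, SE 0.259), H2-M5 (log2 -5.10, SE 0.348) and Arl14epl were also among the 12 largest. Laptm5, a lysosomal membrane protein, went from 159, 181 and 180 CPM to 9.9, 3.28 and 6.25 CPM (log2 -4.73, SE 0.391), and the germline ribosomal gene Rpl10l, an intronless copy of Rpl10, from 223, 235 and 200 CPM to 8.44, 3.32 and 11.4 CPM (log2 -4.82, SE 0.452). The naming rule required that the libraries of the days did not overlap for any of these. By change in CPM among called genes, which also depends on transcript length, the largest gains after Fn1 and Peg10 were Myh9 (log2 1.38, SE 0.132), Dnmt3b and Igfbp3, an IGF-binding protein that went from 13 to 14.4 CPM to 693, 579 and 303 CPM (log2 5.28, SE 0.452), and Tpi1 and Emb were also among them. The largest losses among called genes were the ribosomal RNA entry Rn45s (4880 to 6860 CPM, then 2180 to 3100 CPM), Trim28, Zfp42 and the mismatch repair gene Msh6, from 1220, 1340 and 1380 CPM to 459, 418 and 562 CPM (log2 -1.45, SE 0.146). The call of Rn45s was lost with clone as a block (edgeR adjusted p = 0.0533) and without clone 2.3 at D0 (0.0518) or clone 2.1 at D6 (0.061). Poly(A) RNA was sequenced, so the Rn45s counts do not measure ribosomal RNA levels in the cells.

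Clones 2.1 and 2.4 gave a D6 over D0 ratio within 1 line each. Of the 3109 genes called higher, 2370 exceeded 2-fold in both of these clones, where 15.7% of all genes did so, and of the 1752 called lower 1225 did so, where 8.20% of all genes did. These clones supplied most of the libraries behind the calls, and called genes were selected for exceeding 2-fold. Shares above those of all genes were therefore set by that selection, and the counts are no separate check. The sign was opposite in 1 of the 2 clones for 36 and 6 called genes. The median log2 ratios of the genes called higher were 1.87 in clone 2.1 and 1.81 in clone 2.4, and of those called lower -1.74 and -1.47. Across genes, which are not independent replicates, the ratios of both clones gave Pearson r = 0.874 and Spearman rho = 0.858. Lhx1, Fgf5, Inhbb and Gbx2 moved the same way in both: Fgf5 by 11.27 and 9.42, and Inhbb by -8.52 and -7.70 on the log2 scale.

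The order of the D6 clones was not the same in every list. Clone 2.2 was the highest D6 library for 25 of the 27 streak and early mesoderm genes but the lowest for 11 of the 19 trophectoderm genes. Over all genes called higher it was the highest for 52.4% and the lowest for 23.6%. These counts describe 1 library each, and clone 2.2 had no D0 library. Of the 8 genes with the widest D6 range, Aplnr, Mesp1, Kdr, Pdgfra, Amer3 and Asb4 ran from clone 2.4 at the bottom to clone 2.2 at the top, with 6.09 to 89.9 CPM for Asb4. The other 2 were Gpc3 and Gpc4. Gpc3, an X-linked glypican, was at 260 and 129 CPM in clones 2.1 and 2.4 and at 0.107 CPM in clone 2.2, and its neighbour Gpc4 was at 54.8, 40.7 and 0.0357 CPM. In the other 23 libraries of the series Gpc3 ran from 15.2 to 593 CPM and Gpc4 from 20.3 to 69.6 CPM. Both genes lie side by side (chrX:49406198-49518429 for Gpc4 and chrX:49625603-49967127 for Gpc3, mm9), and genes on either side were present in clone 2.2, with Hs6st2 at 18.7 CPM and Phf6 at 76.8 CPM. Usp26, another gene of the region, was higher in clone 2.2 (8.71 CPM) than in clones 2.1 and 2.4 (0.813 and 0.6 CPM), within the 0.117 to 12.4 CPM of the other 23 libraries. DNA was not measured here.

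**Figure D4:**
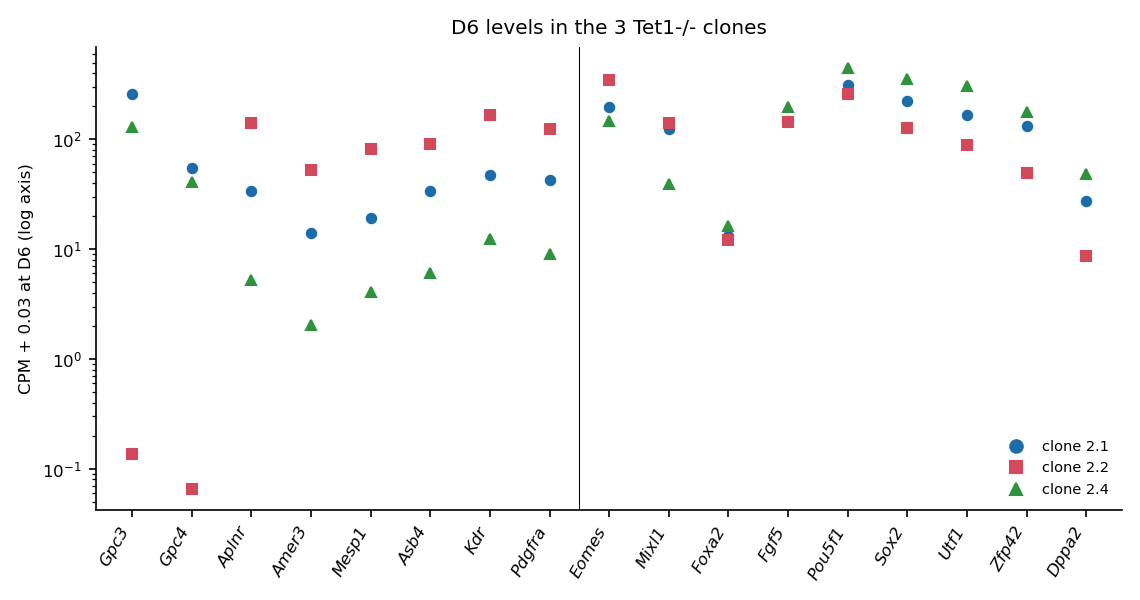
D6 levels (CPM plus 0.03, log axis) in the 3 Tet1-/- clones, for the 8 genes with the widest range among them (left of the line) and for markers of the streak and of pluripotency (right). Gpc3 and Gpc4 were near 0 in clone 2.2 alone, the mesoderm genes were highest in clone 2.2, and Zfp42 was lowest there (49.3 CPM against 132 and 179 CPM).

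The D6 response of Tet1-/- was set beside those of the other genotypes by a test of the difference of responses, in the same fit. WT clones gave 3244 higher (20.7%) and 2073 lower genes (13.3%), and 2668 of the higher and 1474 of the lower were also called in Tet1-/- (85.8% and 84.1% of the Tet1-/- calls, 82.2% and 71.1% of the WT calls), with 5 called in opposite directions. No gene was called for a difference from WT by edgeR (smallest adjusted p = 0.131), while 1200 genes (7.67%) had an unadjusted p under 0.05 and DESeq2 called 3 higher and 9 lower. With edgeR, 1 higher and 5 lower genes were called without the D0 library of WT clone O4.2, and 7 lower genes without its D6 library. The median gene's 95% interval of that difference was 0.574 log2 units wide on each side. DKO clones gave 2904 (18.6%) and 1660 (10.6%) calls, of which 2479 and 1300 were shared (79.7% and 74.2% of the Tet1-/- calls, 85.4% and 78.3% of the DKO calls). Again no gene was called for a difference by edgeR (smallest adjusted p = 0.461; 695 genes, 4.44%, at an unadjusted p under 0.05; DESeq2 1 higher and 2 lower). In WT, 9 core pluripotency and 22 naive genes were called lower, against 7 and 22 in Tet1-/-. Among lists chosen after their values were seen, 12 of 14 2-cell-like genes were called lower in WT and 7 in Tet1-/-, and 18 of 24 Hox genes were called higher in WT and 5 in Tet1-/-. None of these genes was called by edgeR for a difference between the genotypes, so the counts do not show one.

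Tet2-/- clones, with 2 libraries at each day, gave 1980 higher (12.7%) and 1007 lower genes (6.44%), 1645 and 752 of them shared (52.9% and 42.9% of the Tet1-/- calls, 83.1% and 74.7% of the Tet2-/- calls). The difference of responses was called for 219 genes higher (1.40%) and 111 lower (0.710%) in Tet1-/- than in Tet2-/-. These numbers rested on having both Tet2-/- libraries at each day: they were 7 and 8 without Tet2-/- replicate 1 at D0, 58 and 21 without Tet2-/- replicate 2 at D0, 6 and 11 without Tet2-/- replicate 1 at D6, and 1 and 5 without Tet2-/- replicate 2 at D6. In those fits the lone library left was assumed to vary like the other groups. Of the 219, 162 rose in Tet1-/- and 32 fell in Tet2-/-, and 39 rose in both. Of the 111, 74 fell in Tet1-/- and 31 rose in Tet2-/-, and 30 fell in both. Inhbb had the smallest p: its log2 change of -8.42 compared with one of -4.30 in Tet2-/- (122 and 144 CPM, then 5.67 and 7.91 CPM), a difference of -4.12 (SE 0.389, edgeR adjusted p = 3.3e-05). Gbx2 fell by 5.02 and by 1.95 (48.4 and 65.3 CPM, then 14 and 15.5 CPM in Tet2-/-), a difference of -3.08 (SE 0.412, edgeR adjusted p = 0.00204). Both calls held when any 1 Tet1-/- or Tet2-/- library was left out, as did those of Nrp2 and Sall2. For Inhbb and Gbx2 the libraries of the genotypes did not overlap at either day. Nrp2, a receptor for semaphorins and VEGF, went up in Tet1-/-, from 22.9, 20.4 and 19.1 CPM to 80.4, 95.8 and 54.5 CPM, and down in Tet2-/-, from 73.2 and 51.6 CPM to 12.5 and 11.8 CPM (difference 4.24, SE 0.569, edgeR adjusted p = 0.00204). Sall2 rose in both, to 89.1, 116 and 124 CPM in Tet1-/- from 24.2 to 26.5 CPM, and to 121 and 114 CPM in Tet2-/- from 6.74 and 6.46 CPM (difference -2.03, SE 0.313, edgeR adjusted p = 0.00627), so its libraries overlapped between genotypes at D6 and not at D0.

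The calls for Mixl1, Krt8, Fgf10, Peg3 and Esrp1, list genes with a called difference, were each lost when some single libraries were left out. Mixl1 stood at 38.8 to 141 CPM in Tet1-/- at D6 and at 6.48 and 3.87 CPM in Tet2-/- (difference of responses 4.17, SE 0.987, edgeR adjusted p = 0.0295). The call for Mixl1 was lost with clone as a block (edgeR adjusted p = 0.079) and without clone 2.3 or 2.4 at D0 or clone 2.1 or 2.2 at D6 (edgeR adjusted p = 0.076, 0.0714, 0.0642 and 0.0513), and without any 1 of the Tet2-/- libraries (edgeR adjusted p = 0.0943 to 0.147). Krt8 reached 225 to 507 CPM in Tet1-/- and 47.9 and 44.8 CPM in Tet2-/- (difference 2.83, SE 0.507), a call lost without Tet2-/- replicate 2 at D0 or either Tet2-/- library at D6 (edgeR adjusted p = 0.05 to 0.078). Fgf10, a mesenchymal ligand, rose in Tet1-/- from 2.79, 5.08 and 5.16 CPM to 43.2, 68.5 and 9.38 CPM and went from 7.81 and 7.77 CPM to 1.79 and 0.628 CPM in Tet2-/- (difference 5.87, SE 1.1, and edgeR adjusted p = 0.065 with clone as a block), and its call was lost without Tet2-/- replicate 1 at D0 or either Tet2-/- library at D6 (edgeR adjusted p = 0.059 to 0.102). Peg3 reached 217 to 630 CPM and 100 and 78.8 CPM (difference 3.54, SE 0.604), a call lost without the same libraries (edgeR adjusted p = 0.0542 to 0.078). Esrp1, a splicing regulator of epithelia, rose in both, further in Tet2-/- (5.55 and 2.6 CPM, then 111 and 101 CPM; difference -2.03, SE 0.422), a call lost without clone 2.3 at D0 (edgeR adjusted p = 0.052), Tet2-/- replicate 2 at D0 or either Tet2-/- library at D6 (edgeR adjusted p = 0.0795 to 0.103). The number of genes with a called difference also depended on single Tet1-/- libraries and on the pairing of clones: with clone as a block 113 and 45 genes were called, without the D0 library of clone 2.3 it was 51 and 28, without that of clone 2.4 83 and 54, without the D6 library of clone 2.1 79 and 34, and without that of clone 2.2 183 and 55, while without the D6 library of clone 2.4 it was 578 and 439.

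**Figure D5:**
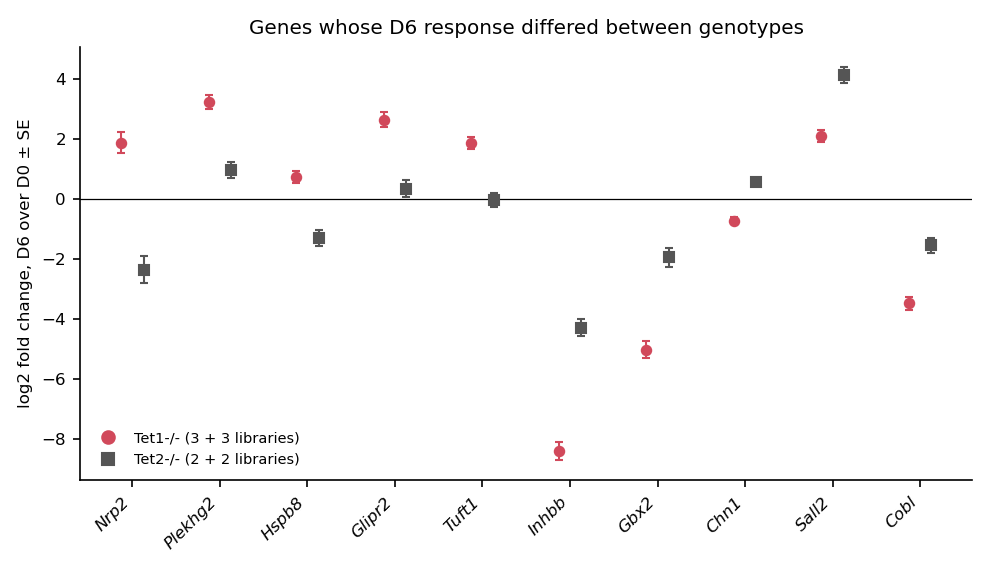
Log2 fold change D6 over D0 with its SE in Tet1-/- (red circles, 3 libraries at each day) and Tet2-/- ESCs (dark squares, 2 at each day), for the 5 genes in each direction with the smallest p for the difference. Nrp2 and Hspb8 lie on opposite sides of 0 in the genotypes, and Inhbb and Gbx2 lie lower in Tet1-/-.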

How the data were processed

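Per the labels and the study's methods, poly(A) RNA was sequenced in paired ends and aligned to mm9 with STAR 2.5.1, and the authors deposited whole-number counts per gene line, in separate tables for D0 and D6, not normalized. Whether counting used strand is not given in the sources used here, so overlapping and antisense genes cannot be told apart. Tables were joined by symbol, keeping the first of several lines (4911 of 22926 symbols). With edgeR 4.0.16 in R 4.3.3, counts of all 24 libraries were TMM-scaled, filtered with filterByExpr (minimum count 10), and fitted by quasi-likelihood with 1 coefficient per genotype and day; p-values were Benjamini-Hochberg adjusted over 15639 genes. A gene was called at an adjusted p under 0.05 and over 2-fold. SE was the log2 change over the square root of F. Ratios with 1 to 3 D0 counts carry a Poisson interval, and genes without D0 counts a floor of 3 counts over the group. Spike-in RNA named in the methods was not used here, since the tables used hold no rows for it, so levels are relative to each library's composition. P-values measure the spread between clones of 1 parent line.

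Gene names in the text are list members, the 12 largest rises and falls among called genes with a mean of at least 10 CPM at the higher day and no overlap of the days, the 8 largest gains and losses in CPM, the 8 widest D6 ranges, and the 5 smallest p in each direction against each other genotype. Neighbours of Gpc3 and Gpc4 and the families among the other observations were named after their values were seen. Some genes that met these rules are not reported here. The members and lists were chosen with earlier results of these data known. On simulated counts (14547 genes, 200 changed at a log2 fold of 2) the test recovered 194 for the D6 response, 175 against Tet2-/-, 185 against WT and 178 against DKO, with 5, 5, 9 and 7 false calls. DESeq2 gave 14 false calls against WT and 19 against DKO. Before the changes, every simulated group had the Tet1-/- D0 means and the same dispersion at both days. Only genes of at least 1 CPM at D0 were changed. The larger spread of the real D6 clones was left out, so the recovery does not measure the power of these comparisons. Clones 2.1 and 2.4 of Tet1-/- and all WT, Tet2-/- and DKO clones were sequenced at both days, and the block used the clone name. For clones 2.1 and 2.4 the deviations from the group means correlated at 0.0933 and 0.233 between days, and at 0.134 for the unlike clones 2.3 and 2.2. DESeq2 1.42.0, library totals, no filter, the highest line per symbol, clone as a block, the 6 libraries alone, glmTreat and leaving out each of the 6 Tet1-/- libraries were tried, as was leaving out each WT, Tet2-/- or DKO library for the difference from that genotype, chosen after seeing the data.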

Additional observations from a re-analysis of the deposited data

Results flagged for a closer look

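The D6 responses of Tet1-/- and Tet2-/- ESCs differed by the edgeR test of the difference itself for 219 genes higher and 111 genes lower in Tet1-/-, and for 1 to 58 and 5 to 21 when any 1 Tet2-/- library was left out. Among those higher, Nrp2 differed by 4.24 log2 units, Plekhg2 by 2.25, Hspb8 by 2.03, Glipr2 by 2.3 and Tuft1 by 1.91. Without Tet2-/- replicate 2 at D6, the calls of Plekhg2, Hspb8, Glipr2 and Tuft1 were lost, and that of Nrp2 held. Those of Glipr2 and Tuft1 were also lost without Tet2-/- replicate 1 at D6, and that of Tuft1 without Tet2-/- replicate 1 at D0. These fits left 1 library in a group, with log2 differences of 2.29 and 2.31 for Glipr2 and 1.77 to 2 for Tuft1. Plekhg2 went from 6.65 to 8.75 CPM to 54.3 to 87.9 CPM in Tet1-/- and from 20.6 and 18.5 CPM to 39.8 and 37.4 CPM in Tet2-/-. Hspb8, a small heat shock protein gene, was not called in Tet1-/- (18.2 to 20.4 CPM, then 22.3 to 39.8 CPM) and stood at 35.7 and 34.1 CPM, then 14.7 and 13.6 CPM, in Tet2-/-.

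Among the genes lower in Tet1-/-, the log2 differences were -4.12 for Inhbb, -3.08 for Gbx2, -1.29 for Chn1, -2.03 for Sall2 and -1.94 for Cobl. The call of Cobl was lost without Tet2-/- replicate 1 at D0 or Tet2-/- replicate 2 at D6 (edgeR adjusted p = 0.0542 and 0.0579), and the others held when any 1 library of these genotypes was left out. Chn1 was not called within Tet1-/- (29.5 to 34.7 CPM, then 17.7 to 21.3 CPM) and stood at 19.2 and 17.9 CPM, then 29.3 and 25.7 CPM, in Tet2-/-. Cobl, an actin nucleator gene, started at like levels (302 to 335 CPM in Tet1-/-, 353 and 359 CPM in Tet2-/-) and ended at 18 to 37.8 CPM in Tet1-/- and at 118 and 126 CPM in Tet2-/-.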

How the results depend on the processing

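For the D6 response, 3109 higher and 1752 lower genes became 2720 and 1500 with clone as a replicate block, 3133 and 1645 with DESeq2, 2833 and 1515 from the 6 libraries alone and 2929 to 3198 and 1442 to 1994 when each Tet1-/- library was left out. glmTreat, which tests against 2-fold, gave 1940 and 910. Scaling by library totals moved the median of all genes to 0.207 and gave 3697 and 1324 (73.6% higher against 64%). Against Tet2-/-, 219 and 111 became 113 and 45 with the replicate block, 483 and 224 with DESeq2, 61 and 24 from clones 2.1 and 2.4 alone (an alternative chosen after seeing the data) 51 to 578 and 28 to 439 when each Tet1-/- library was left out, and 1 to 58 and 5 to 21 when each Tet2-/- library was, so 1 to 578 and 5 to 439 in all. Leaving out Tet2-/- libraries left an arm with 1. Against WT and DKO no gene was called; DESeq2 gave 3 and 9 against WT and 1 and 2 against DKO. Leaving out each Tet1-/- or WT library gave 0 to 1 higher and 0 to 7 lower genes against WT (1 lower without clone 2.2 at D6, 1 and 5 without O4.2 at D0, 7 lower without O4.2 at D6), and leaving out each Tet1-/- or DKO library gave 0 against DKO. The cause was not tested.

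Of 25 list medians, those of LIF and STAT3 (0.09 with library totals, 0.01 from 6 libraries, 0.04 without clone 2.2 at D6), endothelium and blood (-0.22 from 6 libraries, -0.11 to 0.31 leaving out libraries), Hox (-0.48 from 6 libraries) and p53 targets (-0.05 with the block, -0.06 from clones 2.1 and 2.4, -0.09 to 0.07 leaving out libraries) changed sign. Of 217 single-gene results, 179 kept direction and side of the threshold under each alternative that gave a value for them (12 or 13 for the D6 response, 16 for the 15 differences from Tet2-/-; glmTreat gave counts only). Scaling by library totals ended the calls of Ccnd1, Hnf4a, Hoxb9, Hoxd13, Nanog and Rn45s, and clones 2.1 and 2.4 alone also ended that of Sox1 (edgeR adjusted p = 0.0505). Those that changed sign were not called in the main analysis. Leaving out each library gave Cdh5 -0.02 to 0.63, Il6st -0.02 to 0.21, Tal1 -1.11 to 0.15, Tet1 -0.77 to 0.38, Wnt3a -0.19 to 0.68, Kcnq1ot1 -0.29 to 0.02 and Gpc4 -1.10 to 0.14; the block gave Etv2 0.01, Gpc4 0.10 and Kcnq1ot1 0.07; clones 2.1 and 2.4 alone gave Etv2 0.03, Gpc4 0.11 and Kcnq1ot1 0.05; library totals gave Kcnq1ot1 0.08 and Sall4 0.09. Clones 2.1 and 2.4 were paired by name, and clones 2.3 and 2.2 have no pair. Genes at or under 0.0871 to 0.132 CPM, 3 counts in 1 library, rest on counting error.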

Other observations

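The guanylate-binding protein family and Y-linked genes were looked at after their values were seen, so no test is given. Beside Gbp2 and Gbp2b, Gbp3 stood at 0.041 to 0.279 CPM at D0 and at 33, 21.8 and 11.1 CPM in clones 2.1, 2.2 and 2.4 at D6, and Gbp7 at 0.119 to 0.328 CPM and then at 29.6, 24 and 11 CPM. Gbp4 was already counted at D0, at 4.22 to 5.07 CPM, and was at 11.5, 9.92 and 6.47 CPM at D6. For Gbp3, Gbp7 and Gbp4 the D6 libraries lay above the D0 libraries, and clone 2.4 was the lowest of them.

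Ddx3y, a Y-linked RNA helicase gene, was at 2.23, 1.6 and 4.1 CPM in D0 clones 2.1, 2.3 and 2.4 and at 16.5, 32.5 and 1.86 CPM in D6 clones 2.1, 2.2 and 2.4. Uty went from 0.279, 0.369 and 1.15 CPM to 7.92, 19.2 and 0.947 CPM, and Eif2s3y from 4.93, 3.65 and 5.9 CPM to 23, 31.9 and 5.05 CPM. Clone 2.4 thus stayed near or below its D0 level for these genes, while clone 2.1 was higher at D6 than at D0.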
